A study of Caenorhabditis elegans with 2 samples.

Results

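The mitochondrial respiratory chain genes described here are the 40 nuclear protein-coding genes of Caenorhabditis elegans whose names start with nuo-, cox-, atp-, ucr-, cyc- or sdh, together with isp-1 and gas-1, out of 19973 nuclear protein-coding genes. They were chosen by name, and the family was taken up with the signal, the ranks and the IDR membership of its promoter peaks already known, so those values are given as a description with no test. The peaks come from chromatin immunoprecipitation followed by sequencing of tagged UNC-62 in L2 larvae, with 2 biological replicates of whole worms of both sexes. Strain OP600 carries the unc119(ed3) mutation and the inserted transgene wgIs600, which holds unc-62 fused to TY1, EGFP and FLAG together with unc119, so the tagged protein came from a transgene. The antibody is labelled unc-62 and the experiment as directed at eGFP-unc-62, and the antigen was not settled here. Since whole worms were used, the cells in which a site was bound cannot be told. The experiment has no second genotype, stage or treatment. The pooled list held 28005 candidates, each replicate's list 30000, and the reproducible (optimal IDR) set 414. The pooled list is labelled as peaks and background for input to IDR, so a candidate need not be a bound site. The signal value, the authors' own measure of peak height against a control, had a median of 9.02 and a highest value of 174 in the pooled list, 6.11 and 114.9 in replicate 1, and 4.28 and 57.8 in replicate 2, so it is compared only within a list. Rank 1 is the highest signal of a list.

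The respiratory chain lies in the inner mitochondrial membrane. Complex I (NADH dehydrogenase) and complex II (succinate dehydrogenase) pass electrons to ubiquinone, complex III passes them on to cytochrome c, and complex IV (cytochrome c oxidase) passes them to oxygen; complex V, the ATP synthase, uses the proton gradient that results. The core subunits encoded in mitochondrial DNA are joined by many more from nuclear genes, and in worms lowering several of these genes during larval growth is known to lengthen life span. UNC-62 is the worm relative of vertebrate MEIS and fly Homothorax, homeodomain proteins that bind DNA together with PBC and Hox proteins. Many worm mRNAs are trans-spliced to a leader, so an annotated 5' end may lie downstream of where transcription starts.

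The 40 genes of the name rule had UNC-62 candidates at their promoters, and strong ones in particular, more often than protein-coding genes as a whole. A promoter here reached 1000 bp upstream and 200 bp downstream from the annotated 5' end of any transcript of the gene. It held a pooled candidate in 23 of the 40 genes (57.5%), against 37.1% of all protein-coding genes. A candidate of rank 2000 or better was present at 10 of the 40 (25%), against 5.21% of all. A reproducible peak was present at 5 of the 40 (12.5%), against 1.38% of all. The 5 genes were cox-5A, cox-5B and cox-6A of complex IV, cyc-1 of complex III and atp-1 of complex V. The 37 respiratory chain genes outside the name rule, given below, had shares of 40.5%, 8.11% and 2.70%, closer to those of all genes. Over the 23 genes with a candidate, the highest signal ran from 6.77 to 84.8 with a median of 15.3, and the median pooled rank was 2187, against a median rank of 11312.5 over the 7410 genes of the genome with a promoter candidate. These values depended on the replicates used. Without replicate 1, a candidate of rank 2000 or better was present at 5 of the 40 genes, against 4.21% of all, and one within as many of the highest candidates as the reproducible set holds at 3, against 1.21%; without replicate 2 the counts were 10, against 4.89%, and 4, against 1.31%. The median rank was 7049 in replicate 1 alone, against 12103 for all genes, and 9119 in replicate 2 alone, against 12374.5 for all genes.

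**Figure D1:**
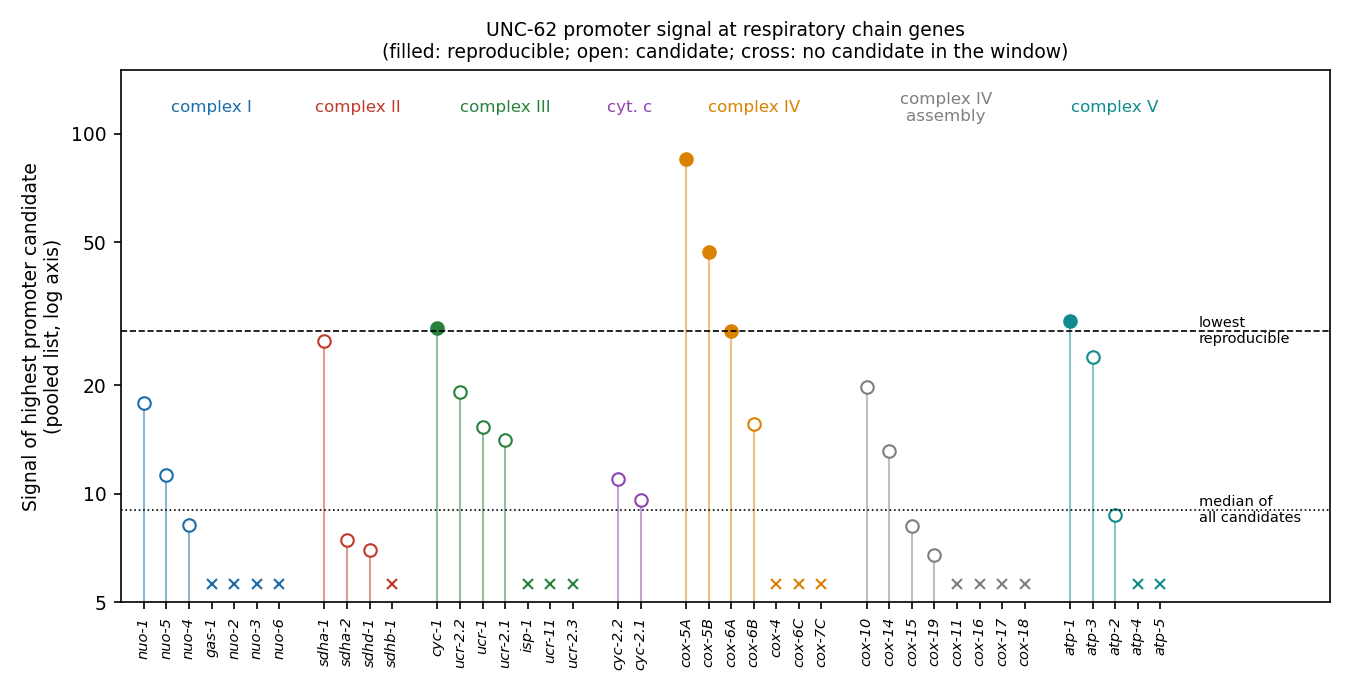
Signal of the highest promoter candidate in the pooled list (log axis) for each of the 40 genes, grouped by complex; filled points are reproducible peaks, open points other candidates, and crosses mark the 17 genes with no candidate in the promoter. The dashed line is the lowest signal of a reproducible peak (28.2) and the dotted line the median of all candidates (9.02); cox-5A and cox-5B stand highest, and apart from the cytochrome c genes each group has genes with a candidate and genes without one.

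The DNA under the summits is shown for 5 of the 10 strongest genes. Each run is 121 bases of WBcel235 (ce11) centred on the summit of the pooled candidate and is written 5′ to 3′ on the strand of the named gene. Capitals mark GAGAGA on either strand, read as TCTCTC on the gene's strand in all 3 cases. These are the only 3 of the 10 strongest sites with GAGAGA, so the runs shown hold more of it than the 10. TGACAG, the core of the MEIS motif, was searched too and is in none of these runs. Its 1 match among the 10 was at atp-3, which is not shown. The runs are chrIII:12905153-12905273 (plus strand) for cox-5A, chrIII:5080884-5081004 (plus) for cox-6A, chrX:8546163-8546283 (minus) for sdha-1, chrX:15173651-15173771 (plus) for ucr-2.2 and chrII:11097502-11097622 (plus) for nuo-1. None overlaps an annotated coding exon or UTR of a protein-coding gene.
cox-5A: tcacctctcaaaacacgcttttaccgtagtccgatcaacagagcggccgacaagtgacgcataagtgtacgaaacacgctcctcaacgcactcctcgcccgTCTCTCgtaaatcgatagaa
cox-6A: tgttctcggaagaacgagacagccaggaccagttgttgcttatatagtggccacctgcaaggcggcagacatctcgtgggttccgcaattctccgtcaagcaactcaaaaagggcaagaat
sdha-1: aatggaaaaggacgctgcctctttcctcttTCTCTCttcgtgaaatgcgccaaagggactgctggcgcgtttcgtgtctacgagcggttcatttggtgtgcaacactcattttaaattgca
ucr-2.2: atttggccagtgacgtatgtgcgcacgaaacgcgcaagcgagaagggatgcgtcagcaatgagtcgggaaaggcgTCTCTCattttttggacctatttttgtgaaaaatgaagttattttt
nuo-1: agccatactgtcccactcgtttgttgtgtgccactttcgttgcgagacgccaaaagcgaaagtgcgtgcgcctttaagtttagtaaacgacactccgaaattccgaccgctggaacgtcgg

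The match begins 41 bases downstream of the summit at cox-5A, 30 bases upstream of it at sdha-1 and 15 bases downstream at ucr-2.2, while the runs of cox-6A and nuo-1 hold neither motif. The GC content of the runs was 51.2% at cox-5A and cox-6A, 47.9% at sdha-1, 44.6% at ucr-2.2 and 52.1% at nuo-1. Within 100 bp of the summit, the width compared with all genes below, it was lower. It was 43.8% at cox-5A and nuo-1, 43.3% at cox-6A, 46.8% at sdha-1 and 38.3% at ucr-2.2.

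Complex IV had the strongest sites of the family. Of its 7 structural subunit genes in the family, 3 were in the reproducible set (42.9%, against 1.38% of all genes). Each complex has few genes here, so no difference between complexes can be read from such counts. The cox-5A site, 278 bp upstream of the gene in intergenic sequence (chromosome III 12905045 to 12905380), had signals of 49.1 in replicate 1 and 34.5 in replicate 2, and 84.8 in the pooled list. It ranked 36 and 15 in the replicates and 23 in the pooled list, so both replicates placed it near the top. The cox-5B site lay 64 bp upstream (chromosome I 9788493 to 9788828), with signals of 31.3 and 18.9 in replicates 1 and 2 and ranks of 143 and 116. Its pooled signal of 46.96 was the second highest of the family, at rank 121. The cox-5A and cox-5B proteins are separate nuclear subunits of the oxidase, not copies of each other. Each site was a gene's own: no other protein-coding promoter held the summit.

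The cox-6A site was the weakest of the family's reproducible peaks, 780 bp upstream of the gene (chromosome III 5080776 to 5081111). Its signals were 14.7 and 11.2 in replicates 1 and 2, at ranks 812 and 552, and 28.3 in the pooled list at rank 411, just inside the set of 414. The 5' end of F54D8.7, annotated as an snRNA gene, was 46 bp from the summit, nearer than any protein-coding 5' end. The other candidate in the cox-6A promoter, 88 bp upstream, had a signal of 7.40 and rank 22911. The reproducible site therefore lies closer to the small RNA gene than to cox-6A. At cox-6B, for a subunit on the intermembrane space side, the candidate had a pooled signal of 15.6 (rank 2051) and ranks of 4138 and 2665 in replicates 1 and 2. It lay 187 bp upstream of the shorter cox-6B transcript, inside an intron of a much longer model, 67 bp from the 5' end of Y71H2AM.20 and within the promoter of nduc-2, a gene for a complex I subunit. The promoters of cox-4, cox-6C and cox-7C, genes for further small subunits, held no pooled candidate.

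In complex III the cytochrome c1 gene cyc-1 had a reproducible peak, and the Rieske iron-sulfur gene isp-1 had no candidate. The cyc-1 site lay 317 bp upstream (chromosome I 8024571 to 8024906), with signals of 14.9 and 14.5 in replicates 1 and 2, ranks of 776 and 233, and a pooled signal of 28.8 at rank 396. The 4 core protein genes, ucr-1 and the 3 related genes ucr-2.1, ucr-2.2 and ucr-2.3, did not have equal sites. The ucr-2.2 candidate, 193 bp upstream (chromosome X 15173543 to 15173878), had a pooled signal of 19.2 at rank 1051, but ranked 7513 and 6691 in replicates 1 and 2, with signals of 7.80 and 5.81. Its pooled rank was thus far better than its rank in either replicate. The ucr-1 candidate ranked 2187 (signal 15.3) and was overlapped by a candidate of replicate 1 alone, at rank 1261.

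The ucr-2.1 candidate ranked 2965 (signal 14.1), with ranks of 3776 and 24090 in replicates 1 and 2, and lay 65 bp from the 5' end of its divergent neighbour nmat-1. The ucr-2.3 promoter held no pooled candidate and a weak one in replicate 2, at rank 25355. Of the genes for cytochrome c itself, cyc-2.2 had a candidate at rank 7560 (signal 10.98) inside a coding exon of cubn-1, and cyc-2.1 one at rank 11467 (signal 9.64) in its own intron. A much stronger peak lay just beyond the promoter limit, 1068 bp upstream of cyc-2.1 (chromosome IV 4750010 to 4750158), at rank 2 and signal 149.9 of the pooled list. It ranked 3 and 2 in replicates 1 and 2 and was 302 bp upstream of rpl-20, a ribosomal protein gene that ends 111 bp upstream of cyc-2.1 on the same strand. The 5' end nearest to it, at 160 bp, was that of Y17G9B.5.

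Among the family's complex V genes, atp-1 and atp-3 had strong sites and the others weak ones or none. The atp-1 site, for the alpha subunit, lay 29 bp upstream of the gene (chromosome I 12652080 to 12652415) in the 190 bp between it and the divergent gene mcrs-1. Its signals were 21.5 and 6.02 in replicates 1 and 2, and its ranks 309 and 5982; its pooled signal was 30.3 at rank 353. The atp-3 site, for the oligomycin sensitivity conferring protein of the stalk, had signals of 19.8 and 5.08 and ranks of 378 and 9842, with a pooled signal of 23.9 at rank 596. Both were thus high in replicate 1 alone. The atp-3 summit was 18 bp past an annotated 5' end of atp-3, in its 5' UTR (chromosome I 5429722 to 5430057). The beta subunit gene atp-2 had a candidate at rank 15257 (signal 8.72), below the median signal of all candidates and overlapped in replicate 2 alone. For coupling factor 6, the atp-4 promoter held no pooled candidate but one of rank 3089 in replicate 2, and the promoter of atp-5, for subunit d, held none in any list.

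Of the family's 7 complex I and 4 complex II genes, 1 each had a candidate of rank 2000 or better (14.3% and 25%, against 5.21% of all genes). None was in the reproducible set, against 1.38% of all genes. With so few genes, no difference from all genes can be read from these counts. Subunit genes outside the name rule are given below. The sdha-1 site, at a gene for the flavoprotein of succinate dehydrogenase, was just outside the reproducible set, with a pooled signal of 26.6 at rank 474. It lay 202 bp upstream (chromosome X 8546055 to 8546390) and had signals of 17.5 and 11.2 and ranks of 508 and 564 in replicates 1 and 2. Both replicates thus placed it within the strongest 2000, as they did the reproducible cox-6A site. Its summit fell on the 5' end of D2021.5, annotated as an ncRNA gene. The related gene sdha-2 had a candidate of rank 22563 (signal 7.44), and sdhd-1, for a membrane anchor, one of rank 26495 (signal 6.96). The sdhb-1 promoter, of the iron-sulfur subunit gene, held none in the pooled list.

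Among the family's complex I genes, nuo-1, for the subunit that binds NADH, had the best site, with a pooled signal of 17.9 at rank 1287. It ranked 1153 in replicate 1 and 16119 in replicate 2, with signals of 13.2 and 4.14. The summit lay 275 bp upstream of nuo-1 (chromosome II 11097394 to 11097729), between it and the divergent ribosomal protein gene rpl-36.A, whose promoter held it too, and 14 bp from the 5' end of C09H10.11, an ncRNA gene. The candidates of nuo-5, for a large iron-sulfur subunit, and nuo-4, for an accessory subunit, ranked 6744 (signal 11.3) and 18105 (signal 8.19), with summits 177 bp and 28 bp inside their genes, and each was overlapped in replicate 1 alone. The promoters of nuo-2 and gas-1, for core subunits, and of nuo-3 and nuo-6, for accessory subunits, held no pooled candidate.

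Of the 8 genes for complex IV assembly factors, 4 (50%) had a promoter candidate, against 37.1% of all genes. A candidate of rank 2000 or better was present at 1 (12.5%, against 5.21%), and a reproducible peak at none (against 1.38%). With 8 genes, no difference from the structural subunit genes or from all genes can be read from these counts. The strongest was cox-10, for the enzyme that starts haem A synthesis by adding a farnesyl group, with a pooled signal of 19.7 at rank 962. Its summit was 23 bp inside the gene, in a coding exon (chromosome II 12679809 to 12680144), and it ranked 1135 in replicate 1 and 5268 in replicate 2, with signals of 13.3 and 6.26. The cox-14 candidate, rank 3836 (signal 13.1), lay in a coding exon of the divergent gene rde-4, 65 bp from that gene's 5' end. The haem A synthase gene cox-15 and cox-19, for a copper delivery factor, had candidates of rank 18551 (signal 8.12) and 27790 (signal 6.77). The promoters of cox-11 and cox-17, also for copper delivery, of cox-18, for membrane insertion, and of cox-16 held none.

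Of the 17 genes with no pooled candidate in the promoter, 7 had none in either replicate list as well. These were atp-5, cox-4, cox-7C, gas-1, isp-1, nuo-3 and ucr-11, genes of complexes I, III, IV and V. The other 10 had a candidate in at least 1 replicate, and apart from the atp-4 candidate at rank 3089 in replicate 2 all of these had ranks from 10790 on. A same-strand gene ended within 500 bp upstream of 6 of the 17 genes without a candidate and of 9 of the 23 with one. At ucr-11, 102 bp behind dad-1 on the same strand, a candidate of rank 957 (signal 19.8) lay 1217 bp upstream, outside the promoter limit and 133 bp from the 5' end of tre-1.

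The replicates differed in how many sites of the family they held. Replicate 1 had a promoter candidate for 27 of the 40 genes, against 39% of all genes, and replicate 2 for 22, against 37.6%. In both lists 16 genes had one. Of the 23 pooled sites, 21 were overlapped by a candidate of replicate 1, 15 by one of replicate 2 and 13 by both. These overlaps were not computed over all genes. Sites of rank 2000 or better numbered 10 in replicate 1 and 5 in replicate 2. Genes with a promoter candidate of rank 2000 or better in both replicates numbered 5 of 40 (12.5%), against 1.77% of all protein-coding genes. They were cox-5A, cox-5B, cyc-1, cox-6A and sdha-1, which is the reproducible set with sdha-1 in place of atp-1. In the comparison lists given below, this share was 0% of the 37 other respiratory chain genes and of the ubiquinone and vacuolar ATPase genes. It was 2.86% of mitochondrial ribosome genes and 7.69% each of assembly and haem and of protein import genes. Higher shares than in the family were those of citric acid cycle genes (15%), the 5 carrier genes (20%) and cytosolic ribosome genes (20.5%). Among the family's sites, membership of the reproducible set followed the pooled rank: sites up to rank 411 were in it, and those from rank 474 on were not. Membership does not mean a high rank in both replicates, as atp-1 ranked 309 and 5982. The cause of the differences between replicates was not tested. The deposited q value does not separate the 7 strongest sites. All 5 reproducible sites, sdha-1 and atp-3 share the highest −log10 q of the pooled list, 2.40. At the other sites it was lower: 1.56 at cox-10, 1.47 at ucr-2.2, 1.19 at nuo-1 and less at all lower ranks, down to 0.02 at cox-19. By the deposited q value, the weaker sites stood out little from the control.

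**Figure D2:**
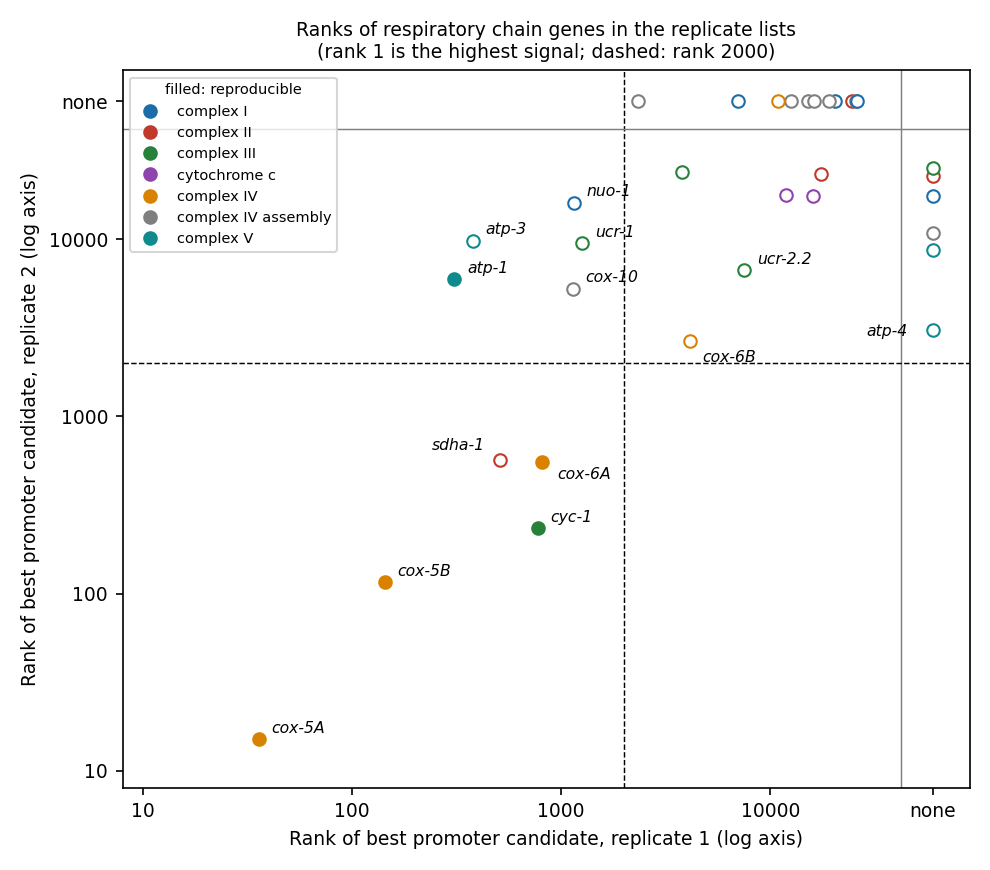
Rank of the best promoter candidate in replicate 1 (x axis) and replicate 2 (y axis), both on log axes with rank 1 the highest signal, for the genes with a candidate in at least 1 replicate; colours give the complex, filled points are reproducible and the dashed lines mark rank 2000. The 5 genes at lower left are cox-5A, cox-5B, cyc-1, cox-6A and sdha-1, while atp-1, atp-3, cox-10, nuo-1 and ucr-1 are within rank 2000 in replicate 1 alone.

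Most sites lay a short way upstream of an annotated 5' end of the gene. Of the 23 summits, 19 were upstream of the nearest annotated 5' end of the gene and 17 of these within 400 bp, with a median position of 193 bp upstream, against 318 bp upstream over all genes with a promoter candidate. The cox-6A and cyc-2.2 sites, 780 and 807 bp upstream, were the exceptions. At cox-6B and cyc-2.1 the nearest 5' end of the gene was that of a shorter transcript, and the summit lay in an intron of the gene. Within 500 bp upstream lay 73.9% of the 23 summits, against 49.3% over all genes with a promoter candidate. By annotation, 14 summits were intergenic, 5 in coding exons, 3 in introns and 1 in a 5' UTR. Of the 10 sites of rank 2000 or better, 8 were intergenic. Shares of these classes over all genes were not computed, so they are not read as a trait of the family. At 12 of the 23 genes the same summit also fell in the promoter of another protein-coding gene, a share not computed over all genes. At 5 (cox-6B, ucr-2.1, cox-14, atp-2 and cox-19) the other gene's 5' end was nearer, 21.7% of the 23 against 14.9% of all genes with a promoter candidate. Where 5' ends of all annotated genes counted, 8 of the 23 (34.8%) had a nearer one, against 25.1% of all genes with a candidate. The 3 added genes, cox-6A, sdha-1 and nuo-1, were all among the 10 strongest, each with the 5' end of a small or noncoding RNA gene nearer. All genes of the family had 1 or 2 candidates in the promoter or none.

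**Figure D3:**
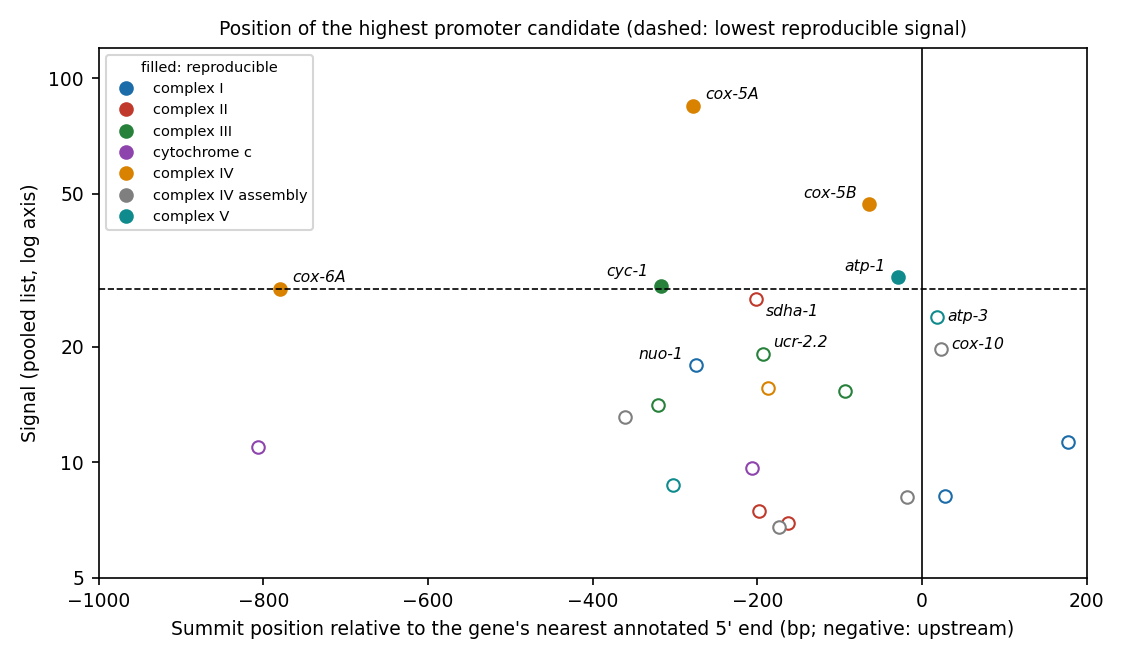
Position of the summit of the highest promoter candidate relative to the gene's nearest annotated 5' end (x axis, bp, negative values upstream) and its pooled signal (y axis, log scale) for the 23 genes with a candidate; colours give the complex, filled points are reproducible and the dashed line is the lowest reproducible signal (28.2). Points gather within 400 bp upstream, and cox-6A is the reproducible site set apart, at 780 bp.

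Motif letters were found at few of the family's sites, in shares that were not tested against those of all genes. GAGAGA, on either strand and no more than 100 bp from the summit, was present at 5 of the 23 sites (21.7%), against 17.4% of the 6596 distinct highest candidates of all protein-coding genes. Among sites of rank 2000 or better it was present at 3 of 10 (cox-5A, sdha-1 and ucr-2.2), against 37.1% of 883 such promoter candidates of all genes. Among reproducible sites it was present at cox-5A alone, 1 of 5, against 48.8% of 215. TGACAG was present at 1 of the 23 sites (4.35%), against 7.28% of those of all genes, where it was also uncommon at reproducible sites (7.91%). The site was that of atp-3, where it began 52 bases upstream of the summit. Of the 10 strongest sites 6 held neither motif. GC content within 100 bp of the summit had a median of 39.3% (27.9 to 52.7) over the family, against 36.3% over all genes. A motif match is a description of the sequence and does not show that a protein bound there.

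The name rule does not take in all subunits of the chain. Another 37 genes were mostly complex I subunits with names such as ndua- and ndub- and ATP synthase genes such as asb-1. They had a promoter candidate in 15 cases (40.5%, against 37.1% of all protein-coding genes). A candidate of rank 2000 or better was present in 3 (8.11%, against 5.21%) and a reproducible peak in 1 (2.70%, against 1.38%). The reproducible peak was 180 bp upstream of ndub-8, at rank 262 (signal 34.2), and the next were nduf-11 (rank 831) and mev-1, the gene for the remaining subunit of succinate dehydrogenase (rank 1167). Over both lists together, 77 genes, a reproducible peak was present at 6 (7.79%) and a candidate of rank 2000 or better at 13 (16.9%). The 40 genes, taken up with their values known, supply 5 of these 6 and 10 of these 13. The joint shares therefore give no comparison with all genes apart from that of the 40 genes.

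Other mitochondrial gene lists had members with strong sites as well. The citric acid cycle list had 2 reproducible peaks at 20 genes (10%), at aco-2 (rank 309) and dld-1 (rank 327), for aconitase and a dehydrogenase subunit, and 4 candidates of rank 2000 or better. The assembly and haem list had 1 at 13, upstream of the copper chaperone gene sco-1 (rank 69, and ranks 78 and 128 in replicates 1 and 2), which acts in complex IV assembly. The ATP and ADP carrier gene ant-1.1 ranked 141, with its summit 26 bp upstream, among 5 carrier genes. Protein import genes had 1 reproducible peak at 13, upstream of tomm-20 (rank 169), for a receptor of the outer membrane. Mitochondrial ribosome genes had 2 at 70 (2.86%), at mrpl-28 (rank 152) and mrps-21 (rank 374), and the 8 ubiquinone genes had none, the best being coq-2 at rank 7952.

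Strong sites were also present at genes of other housekeeping lists. Cytosolic ribosomal protein genes had a reproducible promoter peak at 14 of 78 (17.9%) and a candidate of rank 2000 or better at 30 (38.5%), both shares above those of the respiratory chain genes, with rpl-20 and rpl-3 at ranks 2 and 3. The 20 vacuolar ATPase genes had a pooled candidate at 14 (70%), one of rank 2000 or better at 3 (15%), the best at vha-1 (rank 583), and no reproducible peak. For candidates of any rank, the shares of cytosolic ribosome (70.5%), protein import (76.9%) and citric acid cycle genes (60%) were above the 57.5% of the respiratory chain genes as well. No difference between lists was tested, and how strongly these genes are transcribed in L2 larvae was not measured here.

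**Figure D4:**
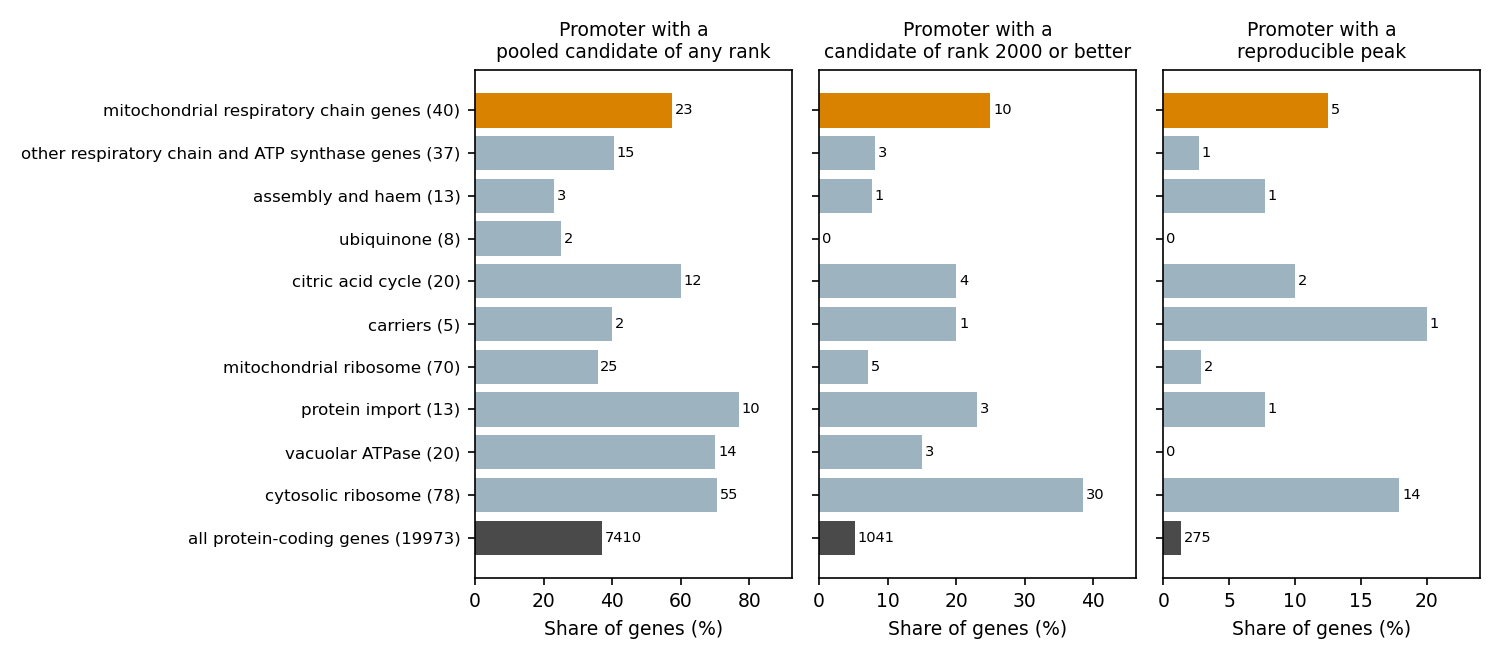
Share of genes (x axes, percent) with a pooled promoter candidate, with a candidate of rank 2000 or better and with a reproducible promoter peak, for the 40 respiratory chain genes (top bar), 9 comparison lists and all protein-coding genes (bottom bar); numbers beside bars are genes, and numbers in brackets the size of each list. The respiratory chain bars (57.5%, 25% and 12.5%) are above those of all genes (37.1%, 5.21% and 1.38%), and the cytosolic ribosome bars are above both.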

How the data were processed

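UNC-62 ChIP-seq was run on 2 biological replicates of L2 larvae. The authors deposited narrowPeak lists: a candidate list per replicate, one from both alignments pooled, and the peaks that passed irreproducible discovery rate (IDR) thresholding, called optimal, each derived with a control file, per the accompanying notes. The signal value of a peak was deposited by the authors; being on another scale in each list, it served only within a list, for ranks and levels. The −log10 q value deposited by the authors is tied at its highest value in 635 pooled candidates. Not given in the sources used here were the read depth, the IDR threshold, and the tools for alignment and peak calling, so no value carries an error from read counts. The control library and the ce10 lists were not analysed here.

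Summits on build ce11 were set against Ensembl release 115 annotation of WBcel235, the same assembly. A gene's promoter covered 1000 bp upstream and 200 bp downstream, counted from the 5' end of each of its transcripts. Every gene whose promoter held a summit was counted. A site's replicate rank is that of the best candidate overlapping it by at least 1 bp; counts of genes per replicate, and ranks of genes with no pooled candidate or in comparison lists, use the best candidate in the promoter. The comparator was all 19973 protein-coding genes of the 6 nuclear chromosomes. Motif letters were matched on either strand, up to 100 bp from a summit. The placement and motif steps recovered all planted summits and motifs when tested on simulated data. Work was done in Python 3.11.15 with pandas 2.3.3.

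The members and the comparison lists were chosen with earlier results of these data known, genes are not replicates, and there was no second condition, so no test was run. Named are members with a reproducible promoter peak, members ranked 2000 or better, the best-ranked member of each complex, members with no candidate, and up to 4 genes of each comparison list; the other members are given with their values for completeness. Alternatives were other promoter windows, nearest-gene assignment, other rank limits and motif windows, and each replicate alone.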

Additional observations from a re-analysis of the deposited data

How the results depend on the processing

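Of 53 alternative values over 8 results on the family, 43 stayed close to the value reported: counts and median ranks within 1.5 times of it, shares within its exact 95% binomial interval. That interval is wide with so few sites: GAGAGA shares from 13.6% to 30.4% counted as close to 21.7%. Of the 43, 8 came from restricting 5' ends to protein-coding transcripts, chosen after seeing the data, which moved none past these limits. Without replicate 1 or 2, reproducible sites, replaced by as many of the highest candidates of the other replicate, numbered 3 to 4, against 1.21% and 1.31% of all genes. Genes of rank 2000 or better numbered 5 to 10, against 4.21% and 4.89% of all genes. The lower value of each came without replicate 1. Keeping only the stronger part of the reproducible peaks gave, by construction, fewer genes, 2, against 0.731% of all genes. The median rank was 7049 to 9119 in single replicates and 1287 where a summit counted only for the gene with the nearest 5' end. The TGACAG share was 0 within 50 bp of the summit and 0 to 11.1% in single replicates. Another gene's 5' end was nearer at 8 of the 40 genes in promoters of 2000 bp upstream to 500 bp downstream, against 15.9% of all protein-coding genes. Where 5' ends of all annotated genes counted, another was nearer at 8 of the 40, against 9.33%. That count is 0 by construction under nearest-gene assignment and was not computed. In promoters of 500 bp upstream to 100 bp downstream cox-6A fell to rank 22911 and the reproducible count to 4, against 1.03% of all genes. In the wider promoters cyc-2.1 took rank 2 and the reproducible count was 6, against 1.94%. The cause of the other changes was not tested. With peak lists alone, the depth behind a site is unknown, and nearness does not show that a gene is regulated.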
